A study of Mus musculus with 6 samples.

Results

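Malat1, Neat1, Gas5, Snhg1, Snhg3, Snhg5, Snhg6, Snhg8 and Snhg12 are long RNAs classed as noncoding. They were taken by gene name from the deposited table, which held a row for each of the 9 among 27480 genes, and all 9 passed the filter on low counts that left 16592 tested genes. All libraries are of mouse OT1 CD8+ T cells, cytotoxic lymphocytes whose transgenic receptor recognises an ovalbumin (OVA) peptide, and every sample is labelled WT for genotype. The cells carried a PTMA overexpression construct in 3 libraries or the empty overexpression vector in 3 libraries, and the OVA peptide had been given for 48 h in all of them. PTMA is prothymosin alpha, a small acidic nuclear protein, and the single comparison is PTMA against vector. The labels do not say how the construct was delivered or what separates the replicates of a group, and every p-value below therefore reflects library-to-library spread that may be technical. RNA was selected for poly(A) tails before sequencing in pairs, per the labels' protocols. In bulk RNA, fewer cells of a type and less RNA per cell cannot be told apart.

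The nuclear RNAs Malat1 and Neat1 lie next to each other in the genome. Malat1 gathers in nuclear speckles, bodies rich in splicing factors. Neat1 is the scaffold of paraspeckles, nuclear bodies that hold proteins such as NONO and SFPQ. The other members are snoRNA hosts: small nucleolar RNAs, which guide the chemical modification of ribosomal RNA, are cut out of their introns, and the spliced exons remain as a by-product. Gas5 was named for its accumulation in growth-arrested cells, and its spliced RNA is known to be removed by nonsense-mediated decay when it is translated. Several host genes carry a terminal oligopyrimidine (TOP) start, a run of C and T bases at the first transcribed base that couples translation of their RNAs to the kinase mTOR.

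The host genes are shown by their starts, because the start is what host genes are known to share. RefSeq promoters on GRCm38.p6 matched 7 of the 9 members by symbol; Neat1 and Snhg6 were not matched. Each window runs from 40 bases before the annotated start to 20 bases from it on, 5′ to 3′ on the gene's strand. Capitals mark a C followed by at least 4 bases that are each C or T with that C within 10 bases of the start on the sense strand, and the letters TATAA on either strand (TTATA when on the other strand) between 40 and 15 bases before the start. Neither motif overlaps the other in these windows.
Gas5 (chr1:161035126-161035185, + strand): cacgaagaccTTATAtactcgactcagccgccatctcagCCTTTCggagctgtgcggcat
Snhg1 (chr19:8723447-8723506, + strand): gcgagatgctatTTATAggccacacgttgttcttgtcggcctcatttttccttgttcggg
Snhg3 (chr4:132353667-132353726, - strand): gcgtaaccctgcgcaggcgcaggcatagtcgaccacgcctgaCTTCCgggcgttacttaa
Snhg5 (chr9:88522878-88522937, - strand): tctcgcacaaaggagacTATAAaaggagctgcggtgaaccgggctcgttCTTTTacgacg
Snhg8 (chr3:123508317-123508376, - strand): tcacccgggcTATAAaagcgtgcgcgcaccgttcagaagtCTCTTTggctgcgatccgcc
Snhg12 (chr4:132308638-132308697, + strand): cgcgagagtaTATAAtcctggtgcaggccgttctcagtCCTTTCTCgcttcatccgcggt
Malat1 (chr19:5802653-5802712, - strand): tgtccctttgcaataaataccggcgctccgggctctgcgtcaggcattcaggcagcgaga

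The pyrimidine run was found in 5 of the 7 members (Gas5, Snhg3, Snhg5, Snhg8 and Snhg12), against 30.7% of 32817 RefSeq promoter windows. With at least 5 pyrimidines after the C it was found in 3 (Gas5, Snhg8 and Snhg12), against 19.2% of promoters. The letters TATAA, searched after the windows had been read, were found in 5 (Gas5, Snhg1, Snhg5, Snhg8 and Snhg12), against 4.76% of promoters. RefSeq lists another Gas5 start upstream, at position 161034601, whose window held neither motif. The C of the run lay at -2 in Snhg12, -1 in Gas5, 0 in Snhg8, +2 in Snhg3 and +9 in Snhg5, with the annotated start as 0. A run need therefore not be at the first transcribed base. A match describes letters only and is not a measured site.

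The hosts carry 27 snoRNA loci in GENCODE M21: 9 in Gas5, 8 in Snhg1, 4 in Snhg12, 2 each in Snhg3 and Snhg5, and 1 each in Snhg6 and Snhg8. snoRNAs are of 2 classes, box C/D, which guide methylation, and H/ACA, which guide pseudouridylation. Representatives from 4 hosts are shown to make plain how short these RNAs are beside their hosts, with the box C core (TGATG) and box D (CTGA) in capitals, or the ACA near the 3′ end.
Snord47 in Gas5 (chr1:161038082-161038158, + strand): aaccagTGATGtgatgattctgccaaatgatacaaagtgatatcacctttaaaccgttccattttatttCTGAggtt
Snord50a in Snhg5 (chr9:88521529-88521600, - strand): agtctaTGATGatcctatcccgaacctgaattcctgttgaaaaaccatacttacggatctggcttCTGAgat
Snord50b in Snhg5 (chr9:88521797-88521868, - strand): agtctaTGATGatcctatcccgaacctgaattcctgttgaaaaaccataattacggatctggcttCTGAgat
Snord87 in Snhg6 (chr1:9942463-9942549, - strand): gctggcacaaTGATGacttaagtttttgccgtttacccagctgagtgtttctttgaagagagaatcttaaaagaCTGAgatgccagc
Snora24 in Snhg8 (chr3:123507937-123508066, - strand): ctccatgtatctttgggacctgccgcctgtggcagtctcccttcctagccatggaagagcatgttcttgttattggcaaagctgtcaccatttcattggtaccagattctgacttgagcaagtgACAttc
Snord50a and Snord50b differ by 1 base, C50A, counted from the 5′ end with the Snord50a base given first.

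All of these snoRNAs have a row in the deposited table, but almost none held reads. Snord87 was the exception, with 20, 19 and 30 counts in PTMA 1 to 3 and 27, 19 and 21 counts in vector 1 to 3. Its groups overlapped. The other 28 snoRNA rows inside the hosts had at most 4 counts, and 149 of their 168 values were listed as exactly 1. The FPKM beside them corresponded to a median of 0.0245 fragments, and to under 1 fragment in 160 of the 168 values, because the deposited counts are estimates rounded up. A count of 1 in these rows can thus stand for far less than 1 fragment. The host values below are gene-level estimates that include any annotated transcripts with retained introns. They do not describe the snoRNAs that the hosts carry.

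Depth and markers bear on every value. Total counts ran from 65548729 to 66767589 in the PTMA libraries and from 54989408 to 63011584 in the vector libraries, and levels are given as CPM, counts scaled to library size by the TMM method. A count of 0 allows up to 0.0456 to 0.0536 CPM. This floor covers counting error only. Ptma itself stood at 1152, 1346 and 1272 CPM in PTMA 1 to 3 and at 848, 783 and 1146 CPM in vector 1 to 3 (log2 fold change 0.44, SE 0.13, edgeR quasi-likelihood adjusted p = 0.951). Cd8a, which encodes a chain of the CD8 coreceptor, averaged 663 ± 25.7 CPM in PTMA and 614 ± 21.2 CPM in vector libraries (SD, n = 3 each), while Cd4 averaged 0.73 and 0.80 CPM. Summed markers of B cells (5.37 to 6.69 CPM in PTMA, 3.95 to 4.95 in vector libraries) and of myeloid and dendritic cells (23.9 to 29.4 and 20.2 to 22.9 CPM) were low beside the T cell list (6398 to 6818 and 6290 to 6767 CPM). Summed stroma markers were at 212 to 217 CPM in PTMA and 204 to 207 CPM in vector libraries, erythroid markers at 0.08 to 0.18 and 0.32 to 0.55 CPM, and keratinocyte markers at 1.37 to 10.2 and 1.86 to 27.1 CPM. Oocyte markers stood at 1.56 to 4.15 CPM in PTMA and 22.8 to 33.7 CPM in vector libraries. Most of the vector sum came from Gdf9 alone, at 24.7, 12.5 and 19.3 CPM in vector 1 to 3. Gdf9 was called lower in PTMA (log2 fold change -3.90, edgeR adjusted p = 0.0397), so the sum does not speak for each oocyte marker. Of the defining markers, Blnk of B cells was at 0 in 5 libraries and Csf1r of myeloid cells in 2. Krt5 and Krt14 of keratinocytes were at 0 in 3 each, and Zp2 of oocytes in 3. In the stroma list Dcn was at 0 in 2 libraries and Col3a1 and Col1a2 in 1 each, while Col1a1 and Pecam1 were at 0 in none. The stroma sum therefore does not speak for each of its markers. No marker with a row was at 0 in all 6. The part of these other cells in the members' values was not tested.

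The 9 RNAs ranged from 1.81 mean CPM for Snhg12 to 552 for Malat1, and none passed the test between PTMA and vector. Of 16592 genes tested 0.0121% were called in either direction (2 genes, Gdf9 and Pkd2l2, both lower in PTMA and neither a member). Malat1 was by far the most abundant member and Gas5 the next, and the other 7 lay between 1.81 and 15.8 mean CPM. By log2 fold change 7 of the 9 were negative and 2 positive, where 53.2% of all tested genes were negative. The median was -0.24 over the members and -0.01 over all tested genes. At an unadjusted p under 0.05 there was 1 member, Snhg1, where 4.65% of all tested genes lay under that value. The groups did not overlap for 2 members, Snhg1 and Snhg6, where 10.8% of all tested genes did not overlap.

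**Figure D1:**
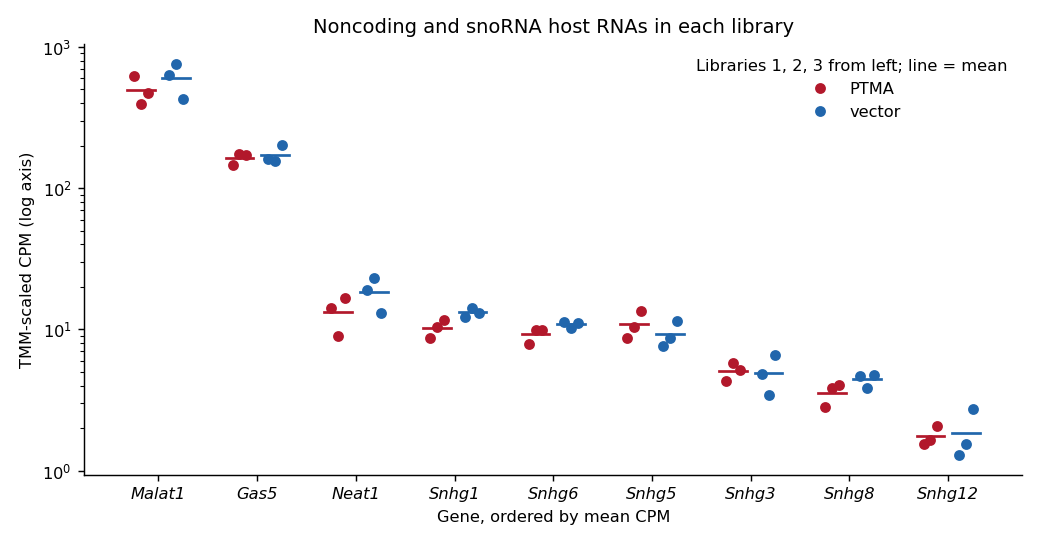
TMM-scaled CPM (log axis) of each gene in each library, with PTMA libraries in red on the left and vector libraries in blue on the right of each gene; points are libraries 1 to 3 from left to right and lines are means. The groups overlap for every gene but Snhg1 and Snhg6.

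Malat1 (ENSMUSG00000092341, chromosome 19, 5795690 to 5802672, - strand) had 619, 396 and 474 CPM in PTMA 1 to 3, against 629, 763 and 430 CPM in vector 1 to 3. PTMA 1 lay with vector 1, and vector 3 lay with the lower PTMA libraries, so the groups overlapped over most of their range. Means were 496 ± 113 CPM in PTMA and 607 ± 168 CPM in vector libraries (SD, n = 3 each). The log2 fold change was -0.29 (95% interval -0.77 to 0.19, SE 0.21), which did not pass (edgeR quasi-likelihood, adjusted p = 0.951). It depended on the libraries used: it was -0.09 without vector 2 and -0.15 without PTMA 2, but -0.49 without vector 3 and -0.48 without PTMA 1. Malat1 took 0.0388% to 0.0613% of all counts in the PTMA libraries and 0.0423% to 0.0782% in the vector libraries, and ranked 230 by mean CPM among the tested genes.

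Neat1 (ENSMUSG00000092274, chromosome 19, 5824708 to 5845478, - strand) had 14.1, 8.92 and 16.6 CPM in PTMA 1 to 3, against 19.1, 23.0 and 13.1 CPM in vector 1 to 3. As for Malat1, PTMA 2 was the lowest library, vector 2 the highest, and vector 3 fell among the PTMA libraries. Means were 13.2 ± 3.91 CPM in PTMA and 18.4 ± 5.03 CPM in vector libraries (SD, n = 3 each), with a log2 fold change of -0.48 (95% interval -1.06 to 0.10, SE 0.25; edgeR adjusted p = 0.951), -0.28 without vector 2, -0.26 without PTMA 2 and -0.68 without vector 3. Neat1 had the widest spread of the 9, with a coefficient of variation over the 6 libraries of 31.2%. That of Malat1 was 25.7%, and the median over 8843 genes of at least 10 mean CPM was 8.55%. The number of Malat1 counts per Neat1 count was 43.9, 44.4 and 28.6 in PTMA 1 to 3, against 32.9, 33.1 and 32.9 in vector 1 to 3.

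Both nuclear RNAs could be caught by poly(A) selection in more than 1 form, so their 3′ ends are shown. GENCODE M21 gives Neat1 a long form of 20771 bases and a short form of 3004 bases that starts within a few bases of it. The short form is known to be polyadenylated, whereas the long form ends in a structure cut by RNase P, and gene-level counts do not separate them. The last 60 bases of each follow, with the poly(A) signal AATAAA in capitals.
Malat1 (chr19:5795690-5795749, - strand): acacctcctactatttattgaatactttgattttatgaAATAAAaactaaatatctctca
Neat1 short form (chr19:5842307-5842366, - strand): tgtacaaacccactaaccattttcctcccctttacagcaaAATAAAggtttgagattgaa
Neat1 long form (chr19:5824708-5824767, - strand): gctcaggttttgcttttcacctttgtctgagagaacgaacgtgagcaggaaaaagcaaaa
The signal stands near the annotated end of Malat1 and of the short Neat1 form and not in the last 60 bases of the long form. RNase P also processes the end of Malat1, so the signal does not show that the counted Malat1 RNA carried a poly(A) tail.

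Gas5 (ENSMUSG00000053332, chromosome 1, 161034422 to 161038539, + strand), the host of 9 snoRNA loci, was the steadiest member. It had 147, 175 and 173 CPM in PTMA 1 to 3, against 160, 155 and 201 CPM in vector 1 to 3. PTMA 1 was the lowest library and vector 3 the highest, while vector 1 and vector 2 lay below PTMA 2 and PTMA 3, so the groups overlapped. Means were 165 ± 15.8 CPM in PTMA and 172 ± 25.2 CPM in vector libraries (SD, n = 3 each). The log2 fold change was -0.06 with a 95% interval from -0.32 to 0.19 (SE 0.11, edgeR adjusted p = 0.965), the narrowest interval of the 9. It turned to 0.065 without vector 3 and to 0.016 without PTMA 1. Gas5 supplied most of the reads of the 7 hosts: their summed level was 180, 217 and 219 CPM in PTMA 1 to 3 and 202, 197 and 251 CPM in vector 1 to 3, of which the hosts other than Gas5 made 33.8, 42.0 and 46.3 CPM and 42.0, 42.0 and 49.9 CPM.

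Snhg1 (ENSMUSG00000108414, chromosome 19, 8723475 to 8726443, + strand), host of 8 snoRNA loci, came nearest to a difference. It had 8.66, 10.5 and 11.6 CPM in PTMA 1 to 3, against 12.3, 14.1 and 13.2 CPM in vector 1 to 3. Every PTMA library was below every vector library, with PTMA 3 just under vector 1. The log2 fold change was -0.37 (95% interval -0.68 to -0.05, SE 0.14) with an unadjusted p of 0.0280, and it did not pass over all genes (edgeR, adjusted p = 0.951). The log2 fold change was between -0.46 and -0.26 with each library left out in turn. In these edgeR fits the unadjusted p was 0.096 without PTMA 1, 0.058 without PTMA 2 and 0.084 without vector 2. It was 0.018 without PTMA 3, 0.038 without vector 1 and 0.041 without vector 3.

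Snhg6 (ENSMUSG00000098234, chromosome 1, 9941959 to 9944118, - strand), host of Snord87, had 7.84, 9.86 and 9.95 CPM in PTMA 1 to 3, against 11.3, 10.3 and 11.1 CPM in vector 1 to 3. The groups did not overlap, but PTMA 2 and PTMA 3 lay within 0.5 CPM of vector 2. The log2 fold change was -0.24 (95% interval -0.55 to 0.07, edgeR adjusted p = 0.951), and -0.14 without PTMA 1. Snhg8 (ENSMUSG00000104960, chromosome 3, 123507552 to 123508404, - strand), host of Snora24, had 2.80, 3.84 and 4.02 CPM in PTMA 1 to 3, against 4.68, 3.87 and 4.77 CPM in vector 1 to 3. PTMA 3 lay above vector 2, so the groups overlapped, and the log2 fold change of -0.32 had a 95% interval from -0.78 to 0.14 (edgeR adjusted p = 0.951) and was -0.18 without PTMA 1.

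The groups overlapped for Snhg5, Snhg3 and Snhg12. Snhg5 (ENSMUSG00000097195, chromosome 9, 88495268 to 88523562, - strand), host of the Snord50 pair, had 8.67, 10.4 and 13.5 CPM in PTMA 1 to 3, against 7.59, 8.75 and 11.4 CPM in vector 1 to 3 (log2 fold change 0.23, 95% interval -0.24 to 0.69, edgeR adjusted p = 0.952; 0.04 without PTMA 3 and 0.41 without vector 3). Snhg3 (ENSMUSG00000085241, chromosome 4, 132348014 to 132353686, - strand), host of the Snora73 pair, had 4.31, 5.80 and 5.17 CPM in PTMA 1 to 3, all inside the range of vector 1 to 3, which had 4.82, 3.41 and 6.63 CPM. Its log2 fold change was 0.04 (95% interval -0.52 to 0.60, edgeR adjusted p = 0.989) and ran from -0.16 without vector 2 to 0.31 without vector 3, turning negative without PTMA 2 as well (-0.06). Snhg12 (ENSMUSG00000086290, chromosome 4, 132308623 to 132311024, + strand), the lowest member and host of 4 snoRNA loci, had 1.56, 1.65 and 2.07 CPM in PTMA 1 to 3, likewise inside the range of vector 1 to 3, which had 1.29, 1.55 and 2.74 CPM. Its log2 fold change was -0.08 (95% interval -0.83 to 0.67, edgeR adjusted p = 0.984), 0.31 without vector 3 and -0.28 without vector 1. The intervals of Snhg3 and Snhg12 are wide enough to hold sizeable changes in either direction, so these data do not show that their levels are alike.

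**Figure D2:**
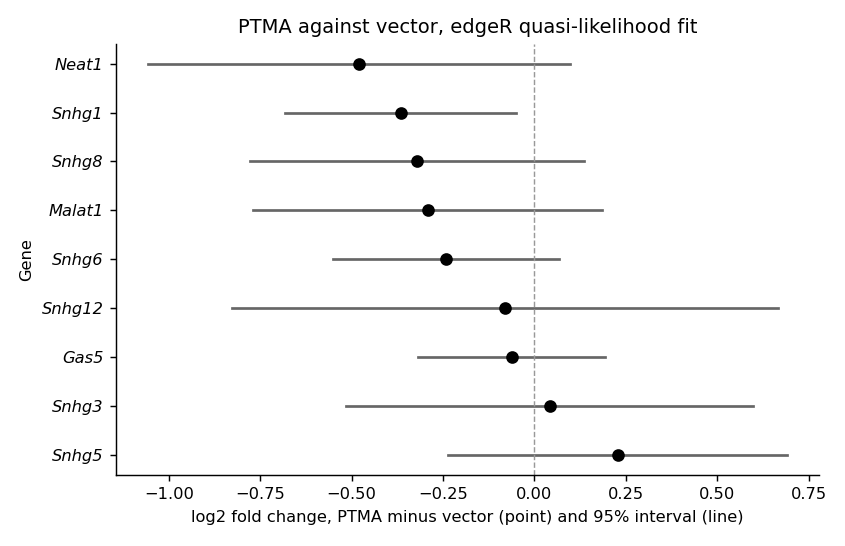
Log2 fold change of each gene, PTMA minus vector (points), with its 95% interval (lines) from the edgeR fit. All intervals but that of Snhg1 (-0.68 to -0.05) include 0, and that of Gas5 (-0.32 to 0.19) is the narrowest.

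The spread among libraries of a group was as wide as the gap between groups for most members, and members differed in which libraries were high or low. Relative to each gene's own mean over the 6 libraries, Malat1 and Neat1 were lowest in PTMA 2 (log2 differences of -0.44 and -0.76) and highest in vector 2 (0.51 and 0.61), with vector 3 also below the mean (-0.32 and -0.21). All 7 hosts were above their mean in vector 3, from 0.15 for Snhg6 to 0.63 for Snhg12, and all 7 were below it in PTMA 1, from -0.17 for Snhg12 to -0.49 for Snhg8. Snhg1, however, was highest in vector 2 (0.28), as Malat1 and Neat1 were, and Neat1 was also below its mean in PTMA 1 (-0.10). Malat1 counts per Gas5 count accordingly ran from 2.26 to 4.22 in the PTMA libraries and from 2.14 to 4.91 in the vector libraries, with vector 3 lowest and vector 2 highest.

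**Figure D3:**
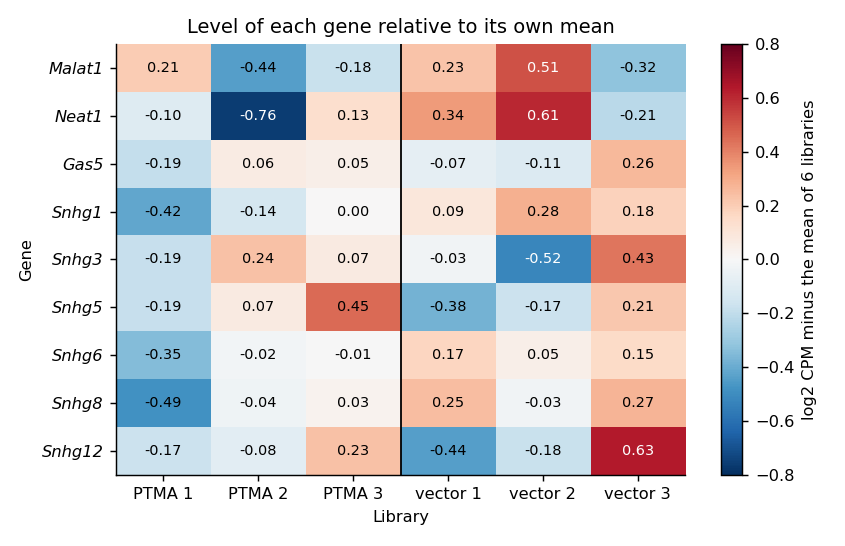
Log2 CPM of each gene in each library minus its mean over the 6 libraries, PTMA libraries on the left and vector libraries on the right of the line. Malat1 and Neat1 are low in PTMA 2 and vector 3 and high in vector 2, while the hosts are all above their mean in vector 3 and below it in PTMA 1, with Snhg1 highest in vector 2.

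Levels by total exon length also differed between libraries and are given beside the pattern. They were looked at after the member values had been seen. Among 8840 genes of at least 10 mean CPM, split into 5 classes by exon length, the longest class (7627 to 123179 bases) had median log2 differences from the gene mean of -0.09 in PTMA 2, -0.07 in vector 3, 0.07 in vector 1 and 0.11 in vector 2. The shortest class (up to 2469 bases) had 0.09 in PTMA 2, 0.11 in vector 3, -0.07 in vector 1 and -0.12 in vector 2. PTMA 1, in which the hosts were below their mean, and PTMA 3 stayed within 0.01 of 0 in these classes. Malat1 has 6983 exon bases and Neat1 20771. Snhg3, Snhg6, Snhg8 and Snhg12 have 853 to 2402, Snhg1 has 2969 and Gas5 has 3760. Snhg5 has 1730 in GENCODE M21, but the length behind its deposited FPKM was 3677 bases. Malat1, Snhg1 and Gas5 thus fall outside the longest and shortest classes, as does Snhg5 by its deposited length, which lies in the class of Snhg1. The class of Malat1 (5292 to 7621 bases) had -0.01 in PTMA 2, -0.03 in vector 3, 0.02 in vector 1 and 0.03 in vector 2. That of Gas5 (3758 to 5291) had 0.03, -0.01, -0.02 and -0.003 in the same libraries. That of Snhg1 (2470 to 3757) had 0.06, 0.02, -0.06 and -0.05. The part of length in the members' values was not tested.

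**Figure D4:**
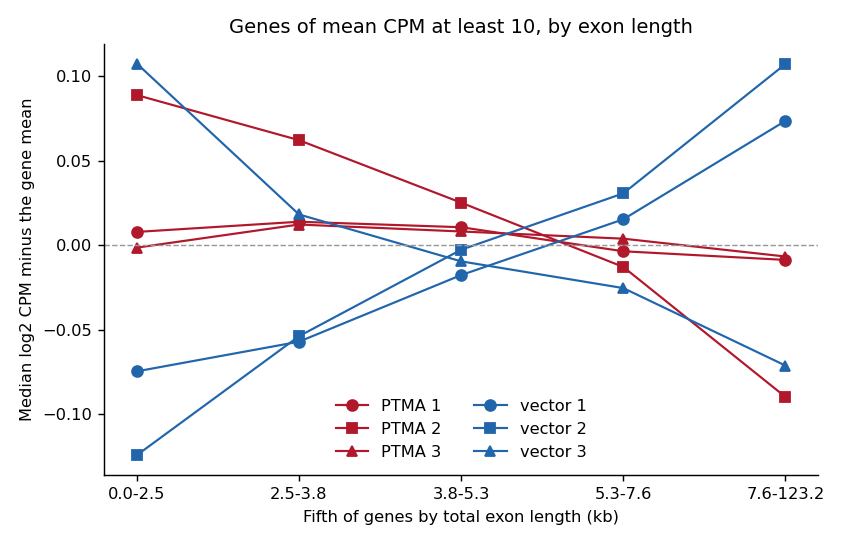
Median log2 CPM minus the gene mean in each library, for genes of at least 10 mean CPM in 5 classes by total exon length in kilobases; PTMA libraries in red and vector libraries in blue. The lines of PTMA 2 and vector 3 go down with length and those of vector 1 and vector 2 go up.

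Genes with the most similar library profiles were found by the smallest root mean square difference of centred log2 CPM over the 6 libraries, among 8481 genes. The nearest to Malat1 were Peak1 (0.05), Ash1l (0.06) and Tanc1 (0.08), the nearest to Neat1 were Zfp568 (0.12), Vamp1 (0.12) and Piezo1 (0.14), and the nearest to Gas5 were Glrx2 (0.02), Cmpk2 (0.03) and Tmem203 (0.03). Peak1, for example, had 50.4, 33.4 and 39.8 CPM in PTMA 1 to 3 and 50.1, 58.8 and 33.3 CPM in vector 1 to 3. Malat1 ranked 105 in likeness to Neat1, and Neat1 ranked 757 in likeness to Malat1, with a difference of 0.23. In likeness to Gas5, Malat1 and Neat1 ranked 8428 and 8459, and the other hosts ranked between 2946 for Snhg6 and 6708 for Snhg12. These points share their libraries, depth and scaling.

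Levels per length depend on which exons are counted. In FPKM, fragment counts scaled to exon length and library size, the members averaged 71.4 for Malat1, 40.2 for Gas5, 7.86 for Snhg6, 4.53 for Snhg3, 4.19 for Snhg8, 3.51 for Snhg1, 2.45 for Snhg5, 0.69 for Neat1 and 0.65 for Snhg12 over the 6 libraries. In FPKM, Malat1 averaged 64.0 ± 14.8 in PTMA and 78.8 ± 24.7 in vector libraries, and Gas5 averaged 39.4 ± 3.79 and 41.0 ± 4.67 (SD, n = 3 each). Snhg6 lay above Snhg3 in every library, whereas Snhg3 and Snhg8 overlapped, as did Neat1 and Snhg12. The length behind the deposited FPKM was the union of all annotated exons, which for Gas5 is 3760 bases because 20 of its 25 GENCODE transcripts retain introns. The longest Gas5 transcript without retained intron has 665 bases. Per kilobase of the longest such transcript the order changed, with 253 CPM per kilobase for Gas5 and 79.0 for Malat1, then 16.5 for Snhg1, 12.3 for Snhg6, 8.65 for Snhg3, 7.57 for Snhg8, 1.18 for Snhg12 and 0.76 for Neat1. For Neat1 both lengths are those of the long form, 20771 bases, while its polyadenylated short form has 3004, so its place is uncertain. Which of these orders is nearer the true one was not tested. For Snhg5 the deposited gene spans 28295 bases, whereas GENCODE M21 places it at 88521050 to 88522929. Its count, CPM and FPKM thus rest on another gene model, and it was left out of the order per transcript.

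Overlapping genes can share reads with a member, since the use of strand in counting is not given. Gm17300, on the strand opposite to Snhg3, shares 705 exon bases with it and had 4.45, 3.35 and 3.85 CPM in PTMA 1 to 3 and 5.22, 4.35 and 4.01 CPM in vector 1 to 3, close to the level of Snhg3 itself. Rcc1, a chromatin-binding exchange factor downstream of Snhg3 on the same strand, shares 135 exon bases with it in GENCODE M21. In the deposited coordinates, however, the spans of Rcc1 and Snhg3 do not overlap and lie 2266 bases apart. Rcc1 had 126 ± 0.85 CPM in PTMA and 119 ± 7.14 CPM in vector libraries (SD, n = 3 each). Snhg3 values are therefore uncertain. Zbtb37 overlaps the start of Gas5 on the opposite strand with no shared exon, and Slc3a2 begins 105 bases from Snhg1 on the opposite strand. Slc3a2, an amino acid transporter subunit, had 258 ± 9.73 CPM in PTMA and 238 ± 7.91 CPM in vector libraries (log2 fold change 0.12, edgeR adjusted p = 0.951), a positive value beside the negative value of Snhg1. Of 10 tested genes listed as neighbours of members 0 passed the test and 8 had positive log2 fold changes (median 0.08), Wdr74, beside Snhg1, having the smallest p with 0.16 (edgeR adjusted p = 0.951). The list was set by name and not by distance. Mrpl13, which is counted among the positive genes (0.06), was not within 3 kb of any member. The most abundant of that list was Frmd8, beside Neat1, at 352 ± 14.5 CPM in PTMA and 337 ± 29.0 CPM in vector libraries (SD, n = 3 each).

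No other host gene on the lists examined was called. Of 16 further noncoding host genes 15 symbols had a row and 13 rows could be tested: 0 passed, 7 were positive and 6 negative, and the median log2 fold change was 0.002, beside -0.01 over all tested genes. Scaled to the same sum of counts, 4 were positive and 9 negative, with a median of -0.02 beside -0.04 over all tested genes at that scaling. Snhg15 was the most abundant of them, at 27.2 ± 3.66 CPM in PTMA and 28.7 ± 3.18 CPM in vector libraries, and Zfas1 stood at 13.8 ± 0.35 and 13.5 ± 1.90 CPM (SD, n = 3 each). Snhg4 has 2 rows in the table, and the rarer had the smallest p of the list, with 2.86, 1.07 and 0.23 CPM in PTMA 1 to 3 and 0.57, 0.15 and 0.11 CPM in vector 1 to 3. The more abundant Snhg4 row had a log2 fold change of -0.24 against 2.32 for the rarer, so the gene shows no common direction. Of 35 protein-coding hosts 0 passed (20 positive, 15 negative, median 0.004), and that scaling turned them to 14 positive and 21 negative with a median of -0.02. Among these Rpl7a, a ribosomal protein gene with many processed pseudogenes that can share its reads, had the smallest p, with 54.5, 76.2 and 65.8 CPM in PTMA 1 to 3 and 108, 82.1 and 163 CPM in vector 1 to 3. Its groups did not overlap, but the log2 fold change of -0.84 did not pass (edgeR adjusted p = 0.951). Hspa8, the abundant cytosolic chaperone, was at 2215 ± 32.2 CPM in PTMA and 2073 ± 186 CPM in vector libraries (SD, n = 3 each).

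The proteins that work with these RNAs did not pass either. Of 18 snoRNP proteins and assembly factors 0 passed, 14 were positive and 4 negative (median log2 fold change 0.08). Snu13, which binds the box C/D fold, had 209 ± 6.13 CPM in PTMA and 183 ± 15.8 CPM in vector libraries (SD, n = 3 each; log2 fold change 0.19, edgeR adjusted p = 0.951), and Nop56, a core box C/D protein, had 345 ± 12.8 and 315 ± 16.1 CPM. Of 17 paraspeckle proteins 0 passed (8 positive, 9 negative), and their median of -0.003 turned to 0.001 with median-of-ratios scaling. Ewsr1 had a log2 fold change of 0.14 and Hnrnpk of 0.08. Of 22 speckle and SR splicing factors 0 passed (10 positive, 12 negative, median -0.03), with log2 fold changes of -0.16 for Acin1 and 0.11 for Srsf7. Of 11 genes of RNase P and of tRNA 3′ end cutting, which process the ends of Malat1 and Neat1, 0 passed (9 positive, 2 negative, median 0.03), but 5 were positive and 6 negative once libraries were scaled to the same sum. Over all tested genes the median was -0.04 at that scaling. Pop7 had a log2 fold change of 0.15 and Elac2 of 0.01.

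Of 18 nonsense-mediated decay factors 0 passed, 5 were positive and 13 negative (median log2 fold change -0.06). The RNA helicase Eif4a3 of the exon junction complex had both the smallest p and the highest level of that list, with 280 ± 13.0 CPM in PTMA and 250 ± 3.51 CPM in vector libraries (SD, n = 3 each; log2 fold change 0.16, edgeR adjusted p = 0.951). Of 12 genes of TOP translation and mTOR complex 1, 0 passed (4 positive, 8 negative, median -0.04). When scaled to the same sum of counts, 1 was positive and 11 negative, with a median of -0.06 beside -0.04 over all tested genes. Tsc1, which restrains mTOR complex 1, stood at 22.8 ± 0.61 CPM in PTMA and 28.0 ± 4.46 CPM in vector libraries, and Larp1, which binds TOP starts, at 206 ± 11.1 and 218 ± 20.7 CPM (SD, n = 3 each).

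Of 13 tested rows of other long noncoding RNAs 0 passed. By sign 10 were negative and 3 positive, where 53.2% of all tested genes were negative, and the median log2 fold change was -0.26 beside -0.01 over all tested genes. When scaled to the same sum of counts, 13 were negative and 0 positive, with a median of -0.30 beside -0.04 over all tested genes. The difference from other genes was not tested. Dleu2, the host of a microRNA cluster, had 15.1 ± 0.35 CPM in PTMA and 18.8 ± 2.39 CPM in vector libraries (SD, n = 3 each), without overlap (log2 fold change -0.31, edgeR adjusted p = 0.951). Oip5os1, the most abundant of that list, had 73.4 ± 1.05 CPM in PTMA and 72.5 ± 8.13 CPM in vector libraries (SD, n = 3 each). RNAs that lack a poly(A) tail were rare in these libraries, and 0 of 5 tested passed (median -0.01). Rn7sk, the RNA that holds the transcription factor P-TEFb inactive, was the most abundant of these, at 0.97 ± 0.18 CPM in PTMA and 1.53 ± 0.16 CPM in vector libraries without overlap (SD, n = 3 each; log2 fold change -0.66, edgeR adjusted p = 0.951).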

How the data were processed

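RNA of 6 libraries was analysed, 3 PTMA and 3 vector, grouped by the sample titles. Per the file headers, each library has an FPKM column and a count column; the deposited FPKM were computed by the authors, and the deposited counts proved to be estimated counts. They are not raw read numbers: in genes of 1 transcript with up to 20 counts, 96.6% to 97.3% of the deposited counts equalled the fragments implied by FPKM and exon length, rounded up. For 98.3% of 6971 genes with over 3 transcripts the length behind FPKM was within 1% of the union of exons. Bowtie 0.12.2, HISAT2 2.0, StringTie 1.3.0 and, as genome build, mm8 are listed in the submitters' processing notes, which assign them no step. How fragments were counted, and whether by strand, is not stated there. The protocol in the labels also speaks of an adipose type, which none of the sample labels does. The coordinates are those of GRCm38: 99.7% of 27405 identifiers shared a start or end with GENCODE M21.

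Counts were tested as deposited with edgeR 4.0.16 (R 4.3.3; TMM, filterByExpr with minimum count 10, quasi-likelihood, group only, Benjamini-Hochberg over 16592 genes, threshold 0.05); the design had foreseen raw counts. Intervals of 95% come from the same fit, are not adjusted, and take the SE from the F statistic. CPM are TMM-scaled. The procedure was tested on simulated counts. Alternatives were other scalings, no filter, robust edgeR, DESeq2 1.42.0, limma 3.58.1 on log2(FPKM + 1), a replicate block and leaving out each library.

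Named genes are the 9 members and genes that overlap or adjoin a member. From each of 11 pathway lists the tested gene with the smallest p and the one with the highest CPM were named. The 3 genes most like each of Malat1, Neat1 and Gas5 were taken among named genes of at least 10 mean CPM. Zfas1, Gdf9, Mrpl13 and the more abundant Snhg4 row were added after their values were seen. There were 7 lists of cell type markers. Members and lists were chosen with earlier results of these data known. Lists are described by counts and medians, with no set test. Sequences are from RefSeq (GRCm38.p6) and GENCODE M21.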

Additional observations from a re-analysis of the deposited data

How the results depend on the processing

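No member passed the threshold in any of the 15 alternative fits (0 of 9 in each; limma with its FPKM filter kept 7 members), and the smallest adjusted p of any member over these fits was 0.229, for Malat1 and Neat1 without vector 3. Of 131 alternative member values 125 kept their sign. Leaving out each library in turn gave log2 fold changes of -0.49 to -0.09 for Malat1, -0.68 to -0.26 for Neat1, -0.12 to 0.07 for Gas5, -0.46 to -0.26 for Snhg1, -0.16 to 0.31 for Snhg3, 0.04 to 0.41 for Snhg5, -0.30 to -0.14 for Snhg6, -0.41 to -0.18 for Snhg8 and -0.28 to 0.31 for Snhg12. The sign turned for Gas5 (0.016 without PTMA 1, 0.065 without vector 3), Snhg12 (0.00108 without PTMA 1, 0.31 without vector 3) and Snhg3 (-0.062 without PTMA 2, -0.16 without vector 2); fewer samples were then used, and the cause was not tested.

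The number of called genes in the whole table was 2, and 42 with DESeq2, 1 with limma on log2(FPKM + 1) or log2(FPKM + 0.1), 0 with limma and no filter on FPKM, 0 with no filter on low counts, and 0 to 3 with each library left out. The replicate block gave 0 called genes and 0 members. Same-numbered libraries had correlations of 0.30, -0.16 and -0.28 between their deviations from the group means over 8843 genes, and PTMA 2 deviated most like vector 3 (0.48), so the numbers give no sign of pairing. The median of the further noncoding hosts was -0.02 with libraries scaled to the same sum, beside -0.04 over all tested genes. The scalings of the other lists were compared after seeing the data. With at least 3 pyrimidines after the C, a run whose C lay within 10 bases of the start was found in all 7 members matched, against 48.1% of promoters. Such a run can lie before the start and is then not a TOP start. Snhg12, Snhg8 and Snhg3 had only 72 to 411 counts per library, which limits their precision.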
